A study of Mus musculus with 4 samples.

Results

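Of the 2726 RFX2 binding peaks in the combined list from mouse testis, 542 (19.9%) lay in far intergenic sequence. A peak was counted there when it overlapped no body of a protein-coding gene and no promoter, taken to begin 1000 bp before and to end 500 bp after the 5′-most transcription start site (TSS), and when its centre was 50 kb or more from the nearest such TSS. The rule used position only, and the strength, the sequence and the replication of these peaks did not enter it. They can still go with position, since the rule leaves out promoters and sequence near a TSS. Chromatin immunoprecipitation followed by sequencing (ChIP-seq) had been carried out with an antibody to RFX2 (sc-10657) on 2 samples of decapsulated testis from wild type mice of a mixed background, C57BL/6|129/Sv|FVB/N, at postnatal day 29 to 30 per the labels, with 2 input samples that entered only through the authors' peak calling and were not analysed here. The study's text describes dissociated germ cells from younger mice instead, at P21, and the peak lists do not settle which preparation was used. All groups were wild type, and no tissue lacking RFX2 was available here as a negative control. The 3 lists analysed were 1 for each replicate and a combined list with a −log10 p-value, a fold enrichment over local background and a summit for each peak.

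RFX2 belongs to the Regulatory Factor X family, whose members share a DNA-binding domain and bind the X-box, an inverted repeat of the arm GTTGCC and its reverse complement. In the testis RFX2 is expressed from meiosis onwards and is needed for round spermatids to grow a flagellum, and RFX factors are best known for promoters of ciliary genes. As a check on the lists, 53 of 77 ciliary and flagellar genes (68.8%, 95% Wilson interval 57.8 to 78.1) had a combined peak in their promoter, against 980 of 21829 protein-coding gene symbols (4.49%). Binding far from genes is described here by its sequence, its strength in each replicate and its surroundings. Intervals below are 95% Wilson intervals for shares and 95% Newcombe intervals for differences of shares. They cover counting error only, since peaks are not replicates, and they do not measure the spread between samples, of which there were 2. Neither the labels nor the study's methods say whether a sample came from a single mouse or from pooled mice.

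The strongest far intergenic peaks nearly all centred on a recognisable X-box. The sequences below are those of the 12 peaks with the highest −log10 p, leaving out 2 that had no X-box and 1 whose sequence is not reported here. They are taken from the GRCm38 reference and shown 5′ to 3′ on the strand named, with the 14-letter X-box in capitals and the rank of the peak in the combined list by −log10 p.
Rank 15, chr8:86390102-86390131, plus strand: ggccctctGTTGCCATGGAAACagcactgc
Rank 36, chr12:98420112-98420141, plus strand: agaggcgaGTTGCCATAGCGATgccacccc
Rank 44, chr14:60485670-60485699, plus strand: ctaagcagGTTGCCATGGCAGCggaagcgg
Rank 75, chr15:97606716-97606745, plus strand: cagtgcggGTTGCCATAGCAACggcagcac
Rank 83, chr14:9330283-9330312, plus strand: actcatgtGTTGCCATGGCAACcagggaat
Rank 85, chr2:168338551-168338580, plus strand: tcttcatgGTTGTCAAGGCAACagtttcct
Rank 106, chr16:86910971-86911000, plus strand: tttactctGTTGTCATGGCTATggggccac
Rank 108, chr4:47772717-47772746, minus strand: gaaaggctGTTGCCATGGGGACtagccaag
Rank 111, chr13:107208086-107208115, minus strand: actctgctGTTGCCATGGGAGCcgaaatcc
The X-box at rank 83 matched the palindrome GTTGCCATGGCAAC without a mismatch, and so did that of rank 38, which is not shown. Those at ranks 15, 44 and 75 differed at 1 position (C11A, A13G and G9A, the base of the palindrome first, with positions counted from 1 at its 5′ end), and the others at 2 or 3.

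The peak of rank 4 (chr6:98753682-98755402) was the strongest far intergenic peak, at −log10 p 435, and its fold enrichment of 70.5 was the highest of all 542. Its score was 348 in replicate 1 and 132 in replicate 2. Foxp1, which encodes a forkhead transcription factor, starts 766.6 kb to the right and Gm765 starts 411.8 kb to the left. The peak of rank 15 had a −log10 p of 353, with scores of 298 and 132 in replicates 1 and 2, and lay 190.5 kb from Abcc12, an ABC transporter gene. At rank 36, between Gpr65, a proton-sensing receptor gene, and the potassium channel gene Kcnk10, the −log10 p was 314 and the scores were 279 and 77.7. The 12 strongest peaks thus stood between 56.9 and 664.1 kb from a TSS, and each scored higher in replicate 1 than in replicate 2.

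Among the others of these 12, the peak of rank 40 lay 68.5 kb from Snx10, a sorting nexin gene, with scores of 259 and 190, the smallest difference between replicates in relative terms of the 12. The peak of rank 44 lay 112.4 kb from Amer2, whose product binds the tumour suppressor APC. Rank 75 fell 99 kb from Rpap3, a co-chaperone gene with a role in dynein arm assembly, with scores of 192 and 99. Rank 83 had scores of 285 and 51.0 and lay 664.1 kb from 4930452B06Rik. The remaining peaks were nearest to the potassium channel gene Kcng1 (rank 85), the methyltransferase gene N6amt1 (rank 106), the nuclear receptor gene Nr4a3 (rank 108), the microtubule-depolymerising kinesin gene Kif2a (rank 111) and, at rank 38, Gm4951. Nearness was measured along the chromosome, and no contact or expression was measured.

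To ask how widely the X-box occurs, the 200 bp around each summit were searched for the palindrome with at most 3 mismatches. Of the 542 far intergenic peaks, 460 had an X-box (84.9%, 81.6 to 87.6), against 75.4% of all combined peaks. In the windows 1000 bp to the right of the same summits, 7 had one (1.29%, 0.627 to 2.64). X-boxes were thus concentrated at the summits. The share was 81.8% in the 489 intergenic peaks within 50 kb of a TSS, and the difference of 3.07 points (−1.48 to 7.66) did not exclude 0. Against intronic peaks (87.6%) the difference was −2.69 points (−6.76 to 1.33). Far intergenic peaks exceeded exonic peaks (79.0%) by 5.90 points (0.403 to 11.8) and promoter peaks (55.9%) by 29.0 points (24.3 to 33.3). Promoter peaks thus stood apart in the combined list. Over all peaks of a replicate list alone both differences turned, to −4.95 and −8.30 points against promoter peaks and −7.60 and −6.49 against nearer intergenic peaks in replicates 1 and 2. With at most 2 mismatches the combined far intergenic peaks exceeded the nearer intergenic peaks by 9.21 points (3.47 to 14.9).

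The match was also closer. A palindrome without any mismatch was found in 48 far intergenic peaks (8.86%, 6.74 to 11.5), against 5.98% of all peaks, and in 10 of 837 promoter peaks (1.19%), a difference of 7.66 points (5.33 to 10.4). Intergenic peaks within 50 kb (8.18%) and intronic peaks (8.01%) differed from the far intergenic peaks by 0.676 (−2.80 to 4.10) and 0.849 points (−2.41 to 4.16). A best match with 1 mismatch was found in 185 far intergenic peaks, with 2 in 155, with 3 in 72 and with 4 or more in 82.

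**Figure D1:**
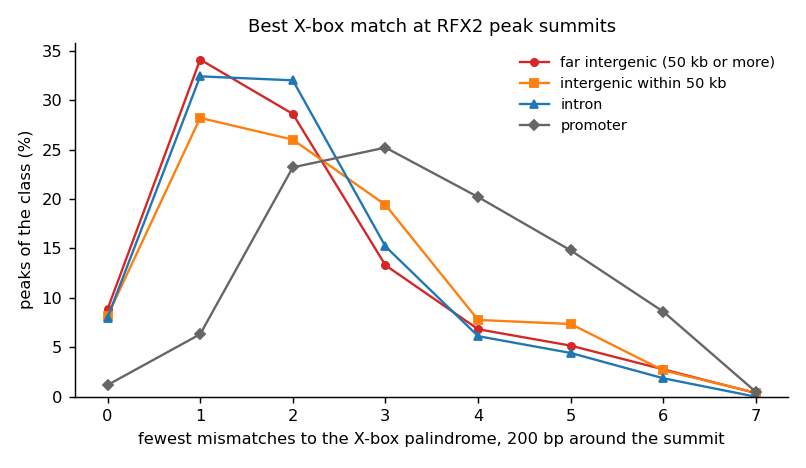
The number of mismatches between the palindrome and its best match in 200 bp around the summit (horizontal axis) is plotted against the percentage of peaks of each class (vertical axis). Far intergenic peaks reach their highest share, 34.1%, at 1 mismatch, beside 32.4% of intronic and 28.2% of nearer intergenic peaks, while the promoter peaks lie lower at 0 and 1 mismatch.

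Of the 48 peaks with an exact palindrome, 19 (39.6%) belonged to a group of peaks with shared sequence that is described further below. The set below shows some of the highest ranks, with the palindrome in capitals and 20 bases on either side. Ranks 291 and 454 belong to that group and the other 4 do not.
Rank 83, chr14:9330271-9330324: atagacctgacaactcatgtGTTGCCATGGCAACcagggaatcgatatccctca
Rank 251, chr3:149175179-149175232: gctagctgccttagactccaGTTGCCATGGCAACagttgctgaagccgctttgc
Rank 272, chr2:21918476-21918529: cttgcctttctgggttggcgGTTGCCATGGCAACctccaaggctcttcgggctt
Rank 291, chr5:102180436-102180489: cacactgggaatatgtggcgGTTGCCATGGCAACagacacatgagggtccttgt
Rank 298, chr2:161332708-161332761: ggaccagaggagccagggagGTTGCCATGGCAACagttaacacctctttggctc
Rank 454, chr10:8199189-8199242: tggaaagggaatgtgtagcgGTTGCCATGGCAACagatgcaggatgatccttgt
In this set, rank 251 lay 184.7 kb from Adgrl2, an adhesion receptor gene, with scores of 129 and 58.6 in replicates 1 and 2. Rank 272 lay 309.0 kb from the myosin gene Myo3a, with scores of 137 and 91.3. Rank 291 lay 110.5 kb from Wdfy3, an autophagy gene, with scores of 130 and 48.3, and rank 298 lay 223.6 kb from the chromatin remodeller gene Chd6, with scores of 159 and 31.6. Replicate 1 was the higher in each case, and the ratio between replicates varied from peak to peak.

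Peak strength varied with the match, though with wide overlap. The median −log10 p was 92.7 (95% order-statistic interval 76.3 to 120) for the 48 peaks with an exact palindrome, 77.6 (67.4 to 85.6) with 1 mismatch, 69.4 (63.9 to 76.0) with 2 and 70.5 (60.3 to 84.8) with 3. It was 61.7 (58.0 to 71.7) for the 82 peaks without an X-box. Replicate 1 scores had medians of 67.8, 63.0, 53.3, 57.2 and 51.8 in the same order, and replicate 2 scores had medians of 21.6, 20.1, 19.0, 18.4 and 18.6. The order was clearest between an exact palindrome and no X-box, and neighbouring classes were not separated by their intervals.

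The X-box marked the summit closely. Its middle lay within 10 bp of the summit in 254 of the 460 peaks (55.2%, 50.6 to 59.7), within 25 bp in 376 (81.7%) and within 50 bp in 449 (97.6%). The median distance was 9 bp (8 to 10). The 460 boxes were spelled in 148 ways, counting a word and its reverse complement once. The most frequent after the palindrome itself were these, with the mismatched base not marked.
In 37 peaks: GTTGCCAAGGCAAC
In 30 peaks: GTTGCCATGACAAC
In 20 peaks: GTTGCCATAGCAAC
In 17 peaks: GTTGCCATGGCTAC
Over all boxes, with both arms read outwards to inwards, the outermost bases varied least: 95.1% matched at position 1, 96.7% at position 2 and 79.9% at position 4. In promoter peaks with an X-box the same shares were 95.6%, 92.2% and 69.6%.

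A stretch with several X-boxes was found in a few far intergenic peaks. The window held 2 or more in 30 peaks (5.54%), 3 in 1, 4 in 3 and 6 in 1. These counts are given for far intergenic peaks only, so they do not show a trait particular to them. Both examples below, with each X-box in capitals, come from peaks that had a second such peak nearby.
Rank 543, chr13:19918923-19919022: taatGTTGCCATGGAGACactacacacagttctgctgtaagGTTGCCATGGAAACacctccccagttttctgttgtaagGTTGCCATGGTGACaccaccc
Rank 1500, chr14:74491019-74491118: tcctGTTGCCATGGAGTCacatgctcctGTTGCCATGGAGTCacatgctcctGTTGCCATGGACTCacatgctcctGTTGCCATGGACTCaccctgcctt
The peak of rank 543, 92.8 kb from the receptor gene Gpr141, was the widest of all 542 with 4133 bp, and its scores were 108 in replicate 1 and 55.3 in replicate 2. Rank 852 stood beside it with 4 X-boxes and scores of 101 and 11.8. Rank 1500, near the serotonin receptor gene Htr2a, had scores of 61.2 and 21.5, and rank 1177 beside it had 83.0 and 19.0. None of the 5 peaks with 3 or more boxes ranked above 543.

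Because the palindrome can be located in the genome without reference to the peaks, the question was also put the other way round, namely how many palindromes of far intergenic sequence lie under a peak. This was added after the data were seen. Far intergenic sequence by the same rule comprised 1097 Mb, 41.4% of the genome without undetermined bases. It held 74 exact palindromes, of which all 74 lay under a replicate 1 peak (100%, 95.1 to 100), 66 under a replicate 2 peak (89.2%, 80.1 to 94.4) and 50 under a combined peak (67.6%, 56.3 to 77.1). The exact sites were thus nearly all under a peak in each replicate. Of 772 sites with 1 mismatch, 78.9% lay under a replicate 1 peak, 52.7% under a replicate 2 peak and 24.5% under a combined peak. For 4516 sites with 2 mismatches these shares were 30.0%, 13.9% and 4.21%, and for 34697 sites with 3 mismatches 4.29%, 1.71% and 0.530%. Peaks covered 0.351% of far intergenic sequence in replicate 1, 0.137% in replicate 2 and 0.0468% in the combined list. The share dropped in every list with each further mismatch.

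**Figure D2:**
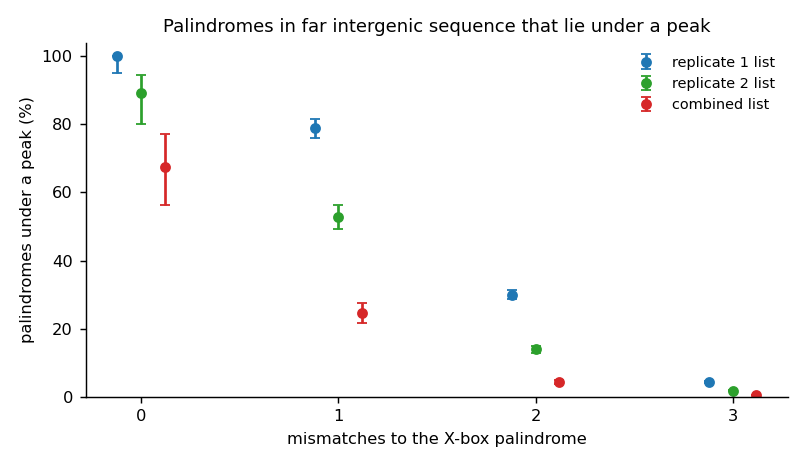
The share of palindromes in far intergenic sequence under a peak (vertical axis, percent, with 95% Wilson intervals) is plotted against the number of mismatches (horizontal axis) for the replicate 1, replicate 2 and combined lists. It starts at 100%, 89.2% and 67.6% without a mismatch and is under 5% with 3 in all lists.

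For the exact palindrome no difference from sequence within genes outside promoters was detectable, at 3.23 points in replicate 1 (−2.15 to 9.06) and −3.28 in replicate 2 (−13.2 to 5.62). With 1 mismatch the far intergenic share differed from that within genes in replicate 2 by −9.28 points (−13.9 to −4.57), and in replicate 1 the difference was −2.11 (−5.95 to 1.68). Promoter sequence was separated from it most clearly at 2 mismatches, where 73.6% of 386 sites lay under a replicate 1 peak and 67.1% under a replicate 2 peak, differences of −43.5 (−47.9 to −38.7) and −53.2 points (−57.8 to −48.2). A site with 2 mismatches was therefore more often under a peak in a promoter than far from genes, in each replicate.

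The share also varied with the base that was changed. Among the 772 far intergenic sites with 1 mismatch, both arms being folded onto positions 1 (outermost) to 7 (middle), 61.0% of 123 sites changed at position 1 lay under a replicate 1 peak and 28.5% under a replicate 2 peak. At position 6 these shares were 90.0% and 72.0% of 50 sites, and at position 7, 90.9% and 66.7% of 132. The base put in its place separated sites further. C5T was under a replicate 1 peak at 58 of 62 sites (93.5%, 84.6 to 97.5) and C5A at 5 of 21 (23.8%, 10.6 to 45.1). In replicate 2 these were 82.3% and 4.76%. A transition from C to T was thus far more often under a peak than a change to A at the same place. T3A was under a peak at 89.3% of 56 sites in replicate 1 and 71.4% in replicate 2, and T3G at 42.3% and 7.69% of 26 sites. At the outermost position G1A had 68 of 87 sites under a replicate 1 peak and G1C had 1 of 15. Replicate 2 gave 33 and 0 of these sites. C6T was under a replicate 1 peak at 44 of 45 sites. The contrasts between C5T and C5A, T3A and T3G, and G1A and G1C had the same direction in both replicates. Many of these sites are copies of related sequence, described further below, so that they are not independent of each other.

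**Figure D3:**
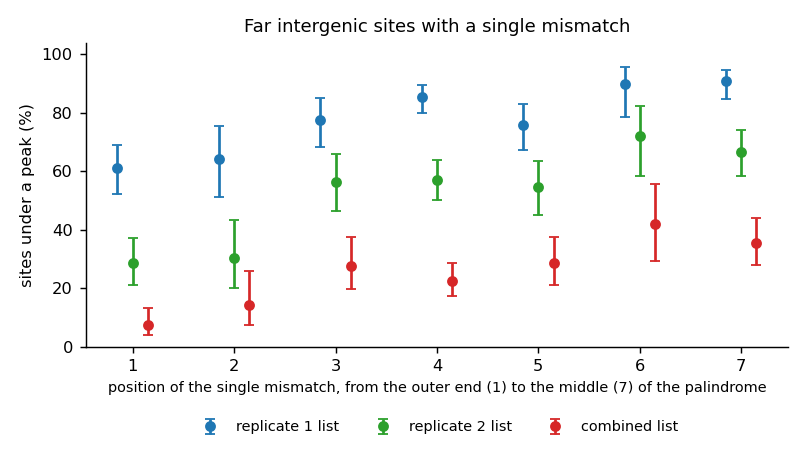
For the 772 far intergenic sites with 1 mismatch, the share under a peak (vertical axis, percent, with 95% Wilson intervals) is plotted against the position of the mismatch, from the outer end to the middle of the palindrome (horizontal axis), for each list. In each list it is lowest at position 1 and highest at position 6 or 7.

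Binding was thinner far from genes. There were 49.4 far intergenic peaks per 100 Mb of such sequence, against 95.1 in intergenic sequence within 50 kb of a TSS, 85.4 within genes outside promoters and 2667 in promoters. Within far intergenic sequence the density went down further with distance. It was 90.0 per 100 Mb (77.9 to 103, exact Poisson interval) at 50 to 100 kb from a TSS, 57.1 (48.2 to 67.2) at 100 to 200 kb, 40.8 (33.5 to 49.2) at 200 to 400 kb and 25.2 (20.2 to 31.0) beyond. The bins, which held 198, 145, 110 and 89 peaks, thus formed an unbroken decline. Palindromes with 0 or 1 mismatch thinned out as well, from 117 to 87.9, 72.3 and 48.4 per 100 Mb. The share of these palindromes under a combined peak was 30.0%, 31.4%, 26.2% and 24.0%, and the nearest bin exceeded the farthest by 5.98 points, with an interval of −2.72 to 14.2. In replicate 1 this difference was 3.16 points (−4.50 to 11.2) and in replicate 2 it was 10.2 points (0.640 to 19.6). For sites with 2 mismatches the share under a peak was lower far out in every list. It was 7.43% in the nearest and 2.42% in the farthest bin of the combined list, a difference of 5.01 points (3.23 to 6.83). In replicate 1 these shares were 34.8% and 26.5% (8.30 points, 4.45 to 12.1), and in replicate 2 they were 17.9% and 10.2% (7.76 points, 4.87 to 10.6).

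**Figure D4:**
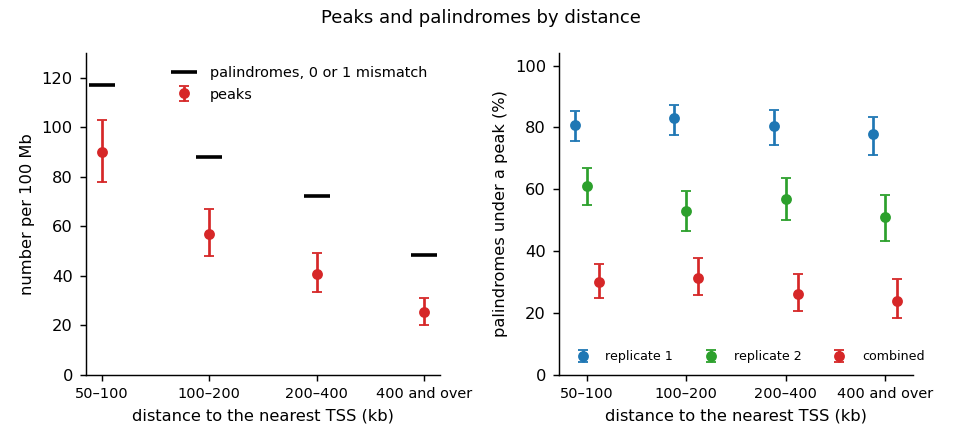
Density by distance from the nearest protein-coding TSS (horizontal axis) is plotted beside the share of palindromes with 0 or 1 mismatch under a peak (percent), with 95% intervals. Far intergenic peaks fall from 90.0 to 25.2 per 100 Mb and palindromes from 117 to 48.4 per 100 Mb across the bins, while the share under a replicate 1 peak stays between 77.8% and 83.0%.

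Peaks of the different bins resembled each other in strength. Their median −log10 p was 71.3, 70.3, 76.8 and 69.5 from the nearest to the farthest bin, and an X-box was present in 86.9%, 88.3%, 77.3% and 84.3%. The 5 most remote peaks lay 1317.8 to 1626.5 kb from a TSS, and none was among the strongest. The peak of rank 2318 (chr8:101178847-101179327) lay in the desert between the cadherin genes Cdh8 and Cdh11, 1606.6 kb from the latter, with scores of 33.6 in replicate 1 and 23.1 in replicate 2. Rank 1590 (chr5:60234296-60234899) lay 1574.2 kb from G6pd2 with scores of 58.1 and 27.3. Rank 2345 lay 1317.8 kb from Nr2f1, a nuclear receptor gene, with scores of 29.0 and 21.5. The other 2, of ranks 1996 and 2099, were nearest to Cdh2 and Pik3c3. At the limit of the rule, the closest peaks inside were rank 1205 (50158 bp from 2010111I01Rik) and rank 2652 (50326 bp from Tox2), and the closest outside were rank 1428 (49851 bp from Cpeb4) and rank 1502 (49890 bp from Mamdc2). Their −log10 p values were 89.9, 44.4, 79.1 and 76.3, so that nothing in strength set the sides apart.

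Far intergenic peaks were spread over all autosomes but were scarce on the sex chromosomes. Chromosome 10 had 49, chromosome 13 had 46 and chromosome 1 had 45, while chromosome 19 had 3, X had 6 and Y had 0. Per 100 Mb of far intergenic sequence there were 95.8 on chromosome 10, 56.8 on the autosomes together and 7.43 on X, a ratio of X to autosomes of 0.131 (exact 95% interval 0.0478 to 0.287). The sites themselves lay under a called peak less often on X. Testis comes from males, which carry a single X and a single Y, and read depth on X and on the autosomes was not available. The part of copy number and of depth in this was not tested. Of far intergenic sites with 1 mismatch, 28 of 43 on X lay under a replicate 1 peak (65.1%) against 79.7% of 729 on autosomes, a difference of −14.6 points (−29.8 to −1.74). In replicate 2 the shares were 32.6% and 53.9% (−21.4 points, −33.9 to −5.99), and in the combined list 6.98% and 25.5% (−18.5 points, −24.2 to −6.52). X was the lower in each list. Both exact palindromes on X were under a peak in each replicate. Other classes of combined peaks were also rare on X, with 1.64% of intergenic peaks within 50 kb, 1.70% of intronic and 1.31% of promoter peaks there, against 1.11% of far intergenic peaks.

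In strength, far intergenic peaks were weaker than promoter peaks by −log10 p and stronger by fold enrichment. Their median −log10 p was 70.7 (67.4 to 76.3), against 76.6 (71.2 to 81.2) within 50 kb of a TSS, 71.1 (67.4 to 76.3) in introns and 108 (102 to 114) in promoters. Their median fold enrichment was 18.2 (17.5 to 18.9), against 18 (17.2 to 18.7), 17.7 (17.1 to 18.3) and 14.6 (14.1 to 15.2) in the same order. With the combined list cut by −log10 p into 4 equal parts, far intergenic peaks made up 13.8%, 18.6%, 23.5% and 23.6% from the strongest to the weakest part. The share in the strongest part minus that in the weakest was −9.80 points (−13.9 to −5.68). Ranked by fold enrichment the difference turned, to 15.1 points (11.2 to 19.1) more in the strongest part. Only 1 of the 10, 9 of the 100 and 149 of the 1000 highest peaks by −log10 p were far intergenic.

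Each of the 542 peaks was met by a replicate 1 peak, and 540 (99.6%) by a replicate 2 peak. The combined list shares its reads with the replicates and may have been chosen for agreement between them, so this is no independent replication. Scores of the overlapping peak ran from 17.4 to 348 in replicate 1, with a median of 57.9, and from 3.53 to 190 in replicate 2, with a median of 19.4. Replicate 1 was the higher in 534 of 540 peaks, so a higher score there was the rule. Across these 540 peaks Spearman's rho between the scores was 0.53, a description over peaks that share 2 libraries. The median ratio of the replicate 2 to the replicate 1 score was 0.311 (0.294 to 0.330), against 0.356 within 50 kb of a TSS and 0.495 in promoters. The scores depend on the depth of each library, which the lists do not give. Per the study's methods, the library of replicate 2 was sequenced a second time to gain reads. That run was contaminated with human DNA, and its reads were added to the first run after those mapping to the human genome were removed.

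**Figure D5:**
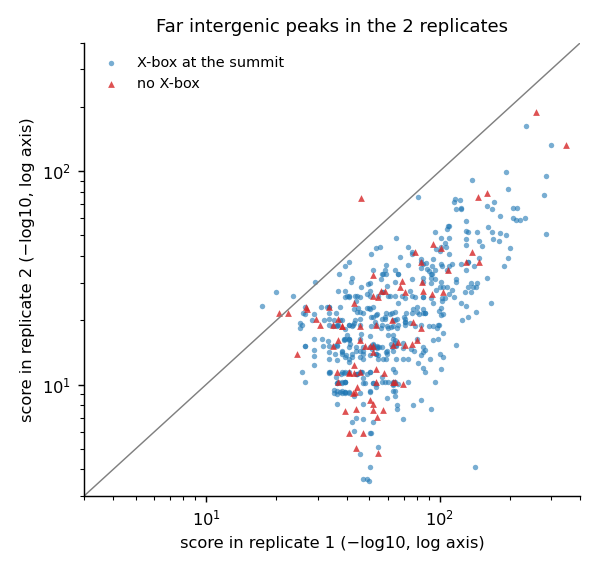
The score in replicate 2 is plotted against that in replicate 1 for 540 far intergenic peaks, both −log10 values on log axes, with the line of equal scores. Nearly all points (534) lie under the line, and peaks with and without an X-box are mixed.

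At the extremes the replicates disagreed. Rank 702 (chr4:7567478-7568726), with an exact palindrome, 577.3 kb from the thymocyte transcription factor gene Tox, scored 141 in replicate 1 and 4.12 in replicate 2, the lowest ratio of all. At the other end, rank 1200 (chr17:4626165-4626716), 368.5 kb from Arid1b, a subunit gene of a chromatin remodelling complex, scored 46.1 in replicate 1 and 75 in replicate 2. Its window consisted of a short tandem repeat, with an 8-letter word in capitals that occurs 17 times in 200 bp.
Rank 1200, chr17:4626361-4626460: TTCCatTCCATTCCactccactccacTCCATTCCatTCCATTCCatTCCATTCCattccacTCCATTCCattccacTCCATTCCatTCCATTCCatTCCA
This window had 7 mismatches to the palindrome at best. The other peaks whose replicate 2 score was the higher had 1 to 5 mismatches, and their 2 scores were closer, for example 19.9 and 27.0 at rank 2406. These examples were picked once their values were known.

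The full replicate lists held many more far intergenic peaks, 14388 of 39825 (36.1%) in replicate 1 and 6630 of 21274 (31.2%) in replicate 2. In replicate 1, 14.1% (13.5 to 14.6) of them were met by a replicate 2 peak, a difference of −8.97 points from intergenic peaks within 50 kb (−10.1 to −7.84). In replicate 2, 31.7% were met by replicate 1, a difference of −11.4 points (−13.3 to −9.49). Among the 10% of peaks with the highest scores in a list, 93.1% of the replicate 1 and 100% of the replicate 2 far intergenic peaks were met, and the differences were −1.87 (−4.14 to 0.455) and 0. Over the whole lists far intergenic peaks were thus met less often than intergenic peaks within 50 kb. Among the highest scores nearly all peaks of both classes were met, so that a difference could hardly appear. In the next 10% of the list the differences were −3.76 points (−8.11 to 0.621) in replicate 1 and −5.58 (−8.09 to −3.21) in replicate 2. Intronic peaks were closer over the whole lists, with 16.5% met in replicate 1 (a difference of −2.44 points, −3.27 to −1.61) and 32.7% in replicate 2 (−0.989 points, −2.51 to 0.538). The X-box went with replication. It was present in 56.1% of the far intergenic replicate 1 peaks that were met and in 12.8% of those that were not, and in 59.2% and 3.22% in replicate 2. In windows 1000 bp to the right it was present in 1.29%, 0.793%, 1.76% and 0.684%. Over all peaks of a replicate list, the X-box share was 18.9% in far intergenic and 23.9% in promoter peaks of replicate 1, and 21% and 29.3% in replicate 2, so that the order seen in the combined list was turned round.

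The 82 peaks without an X-box at the summit included strong ones, with 10 among the 100 strongest far intergenic peaks. Their best match is in capitals in the examples below.
Rank 4, chr6:98754622-98754721: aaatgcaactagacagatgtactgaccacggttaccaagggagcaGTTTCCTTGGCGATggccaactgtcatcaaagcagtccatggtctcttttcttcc
Rank 40, chr6:51592396-51592495: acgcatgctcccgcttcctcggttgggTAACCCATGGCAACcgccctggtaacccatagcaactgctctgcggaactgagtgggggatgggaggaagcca
Rank 231, chr9:113102645-113102744: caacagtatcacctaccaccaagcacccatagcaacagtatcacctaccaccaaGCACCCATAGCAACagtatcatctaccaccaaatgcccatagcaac
Each of these 3 windows held a best match with 4 mismatches, just outside the limit of 3. Rank 214, which was stronger than rank 231 and is not shown, had 6 mismatches at best. Of the 82 peaks, 37 had a best match with 4 mismatches, 28 with 5, 15 with 6 and 2 with 7. At rank 231, 605.5 kb from Pdcd6ip, the right part of the X-box recurred in a tandem repeat, and the scores were 146 and 75.8 in replicates 1 and 2. In 8 of the 82 an X-box lay elsewhere in the peak.

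Some of these peaks carried the arms of the X-box at another spacing. In the palindrome the letters GTTGC and GCAAC are 4 bases apart, and pairs 3 bases apart (GTTGCNNNGCAAC, both strands being the same) with at most 1 mismatch were found in 18 of the 82 (22%, 14.4 to 32.1), against 6.02% of all combined peaks. Among far intergenic peaks with an X-box the share was lower by 21.3 points (13.6 to 31.4). Pairs 5 bases apart (GTTGCNNNNNGCAAC) were found in 5 of the 82 (6.10%), against 3.48% of all combined peaks. Among far intergenic peaks with an X-box the share was lower by 5.45 points (1.76 to 12.9). Over all 542 far intergenic peaks, pairs 5 bases apart were found in 1.48%, below the 3.48% of all combined peaks. The differences from nearer intergenic, intronic, exonic and promoter peaks were −2.20, −1.93, −2.58 and −3.06 points, and each interval excluded 0. For the 82 peaks alone, the difference from intronic peaks without an X-box was −18.6 points (−30.1 to −7.33). From intergenic peaks within 50 kb that lacked one it was −5.14 points (−14.1 to 3.80). From exonic and promoter peaks that lacked one it was −4.43 (−15.6 to 4.85) and −2.85 points (−7.67 to 4.96). These last 3 intervals ran from negative to positive values. The spacing of 3 bases was as frequent in intergenic peaks within 50 kb that lacked an X-box (22.5%, a difference of −0.521 points, −12.8 to 12). In promoter and intronic peaks that lacked one it was found in 19.8% (2.17 points, −6.59 to 12.9) and 17.8% (4.14 points, −8.66 to 16.5). Exonic peaks without an X-box were exceeded by 14.9 points (2.63 to 25.9). The following examples have the pair in capitals.
Rank 995, chr13:84153760-84153804, plus strand: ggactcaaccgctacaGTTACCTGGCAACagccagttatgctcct
Rank 1257, chr15:24156288-24156332, plus strand: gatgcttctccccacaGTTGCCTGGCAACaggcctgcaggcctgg
Rank 1553, chr8:81081052-81081096, plus strand: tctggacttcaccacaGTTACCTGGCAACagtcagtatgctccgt
Rank 1590, chr5:60234621-60234665, minus strand: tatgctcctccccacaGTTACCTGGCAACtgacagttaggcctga
Rank 1970, chr15:13554503-13554547, plus strand: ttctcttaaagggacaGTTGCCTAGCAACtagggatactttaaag
With the spacings of 3 and 5 bases counted as well, 483 of the 542 peaks (89.1%, 86.2 to 91.5) had an X-box or a spaced pair, and 59 had neither. This count is given for far intergenic peaks only and does not set them apart. Of intronic peaks, 87.6% had an X-box even without spaced pairs counted.

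Many far intergenic peaks shared sequence with each other beyond the X-box. Peaks were linked when their summit windows shared words of 16 letters that did not touch the X-box, an analysis that was added after the data were seen. The largest group had 189 peaks of the combined list (6.93%), of which 85 were far intergenic. This was 15.7% of the far intergenic peaks (12.9 to 19.0), against 11.9% (9.29 to 15) within 50 kb of a TSS, 5.96% (4.32 to 8.18) in introns and 0.956% (0.485 to 1.87) in promoters. The examples show 15 bases before the X-box, the X-box in capitals and the shared sequence after it.
Rank 247, chr16:84371065-84371138, minus strand: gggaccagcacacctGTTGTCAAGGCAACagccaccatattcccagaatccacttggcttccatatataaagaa
Rank 422, chr1:176646257-176646330, plus strand: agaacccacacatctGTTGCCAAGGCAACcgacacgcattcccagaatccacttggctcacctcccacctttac
Rank 761, chr1:12233349-12233422, minus strand: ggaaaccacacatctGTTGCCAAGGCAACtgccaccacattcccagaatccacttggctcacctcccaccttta
Rank 782, chr13:97521928-97522001, minus strand: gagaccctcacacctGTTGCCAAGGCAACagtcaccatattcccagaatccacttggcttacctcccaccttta
Rank 1026, chr10:121207959-121208032, minus strand: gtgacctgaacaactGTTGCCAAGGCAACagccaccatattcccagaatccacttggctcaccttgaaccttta
All 85 had an X-box, 19 of them exact (22.4%), which was 16 points more (8.02 to 26.1) than among the other far intergenic peaks. Their median −log10 p was 70.3 (64.5 to 80.6), against 70.8 (67.2 to 77.6) in peaks of neither this nor the second group, and these intervals overlapped. Rank 247 was the strongest of the examples, with scores of 193 and 50 in replicates 1 and 2. The group was given no family name, since no annotation of repeats was used here.

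Copies of this sequence were also compared by their X-box. The most frequent word of the group, in 45 of its 189 peaks and 20 of its far intergenic ones, is the following, whose reverse complement can be read in the examples above.
Shared word: agtggattctgggaat
It occurred 238 times in the genome, and copies were sorted by the best X-box match within 100 bp. With an exact palindrome 7 of 7 copies lay under a peak in each replicate, and with 1 mismatch 70 of 70 in replicate 1 and 63 of 70 in replicate 2. With 2 mismatches these were 52 and 31 of 68, with 3 mismatches 12 and 1 of 44, and with 4 or more 2 and 1 of 49. In the combined list the counts were 7, 33, 7, 0 and 0. Of the 110 copies in far intergenic sequence, 63 lay under a replicate 1 peak and 45 under a replicate 2 peak. Copies with 4 or more mismatches were thus seldom under a peak in either replicate. The word was itself chosen from combined peaks, and all 85 far intergenic peaks of its group had an X-box. The combined counts, and those of replicate peaks that overlap combined ones, are therefore not independent of this choice.

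A second, smaller group of 14 peaks had 6 far intergenic members, none with an X-box. All 6 carried the pair 3 bases apart, and their median −log10 p was 57.1. These made up 6 of the 18 peaks with that pair and no X-box. Allowing shared words to touch the X-box enlarged the groups to 210 and 22 peaks, with 93 and 12 far intergenic members.

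Sequence that the reference marks as repeated in lower case (soft-masking) covered the summit of 86 far intergenic peaks (15.9%, 13 to 19.2), against 9.46% of all combined peaks. Fewer summits than neighbouring bases were masked, since 25.5% of the bases 1000 bp to the right were. Against the nearer intergenic peaks (13.7%) the difference of 2.17 points (−2.21 to 6.48) did not exclude 0. The share exceeded that of intronic peaks (11.6%) by 4.28 points (0.269 to 8.34) and that of promoter peaks (2.63%) by 13.2 points (10.1 to 16.7). Without the first group of shared sequence the difference from intronic peaks was 1.49 points and no longer excluded 0. Exact palindromes were masked in 40 of 48 peaks (83.3%), X-boxes with 1 mismatch in 22.2%, with 2 in 8.39% and with 3 in 2.78%. In all far intergenic sequence 58 of the 74 exact palindromes (78.4%) were masked. The masked run over the exact palindromes of peaks had a median length of 23.0 bp, from 20 to 82 bp, beside the 14 letters of the palindrome. Masking of these sites therefore does not show that they lie in longer repeated elements. How the reference was masked is not given in the sources used here.

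Far intergenic summits were poor in CpG. Windows with at least 50% G+C and a ratio of observed to expected CpG of at least 0.6 made up 18 of 542 (3.32%, 2.11 to 5.19), against 25.7% of all combined peaks. Intergenic peaks within 50 kb had 9%, a difference of −5.68 points (−8.79 to −2.77), and promoter peaks had 67.4% (−64.1 points, −67.4 to −60.3). Intronic peaks had 3.58%, a difference of −0.256 points (−2.45 to 1.98). The median G+C at far intergenic summits was 47.5%, against 60.0% in promoters.

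Some far intergenic peaks lay at starts of genes that are not protein-coding, which the rule did not consider. Within 1000 bp upstream to 500 bp downstream of such a start there were 54 peaks (9.96%, 7.72 to 12.8), against 9.87% of all combined peaks, a share near the background. The share was 11.5% in intergenic peaks within 50 kb (difference −1.49 points, −5.34 to 2.29). Of the 54, 38 were at starts of long intergenic non-coding RNA genes (lincRNA). Peaks at such starts had an X-box less often, in 74.1% against 86.1% (difference −12 points, −25.3 to −1.63), and a CpG-rich window more often, in 9.26% against 2.66% (6.60 points, 1.04 to 17.3). Their median −log10 p was 68.8 (59.6 to 84.4), against 70.8 (67.4 to 76.6) for the others.

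The strongest of them was rank 44, whose summit lay 507 bp downstream of the start of Gm29266, with scores of 235 in replicate 1 and 162 in replicate 2. At 4930404H11Rik (rank 240) the summit lay 43 bp upstream of the start, with scores of 159 and 68.3. Rank 247, shown above among the copies of shared sequence, lay 23 bp upstream of 4930553E22Rik. At 1700034K08Rik (rank 325) the summit was 2 bp upstream of the start, with scores of 130 and 45.3. The others by rank were 6330576A10Rik (rank 285), 4930441H08Rik (rank 328), Gm35430 (rank 360) and Gm34590 (rank 404). All 8 are annotated as lincRNA and all 8 peaks had an X-box with 1 or 2 mismatches. Whether these RNAs are expressed in the testis was not measured here.

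The peaks were mostly solitary. The next far intergenic peak was a median of 941862 bp away (784460 to 1136545), and 40 of the 542 (7.38%, 5.47 to 9.89) had another within 50 kb, as 20 pairs and no larger group. Among the pairs with the strongest peaks, ranks 75 and 354 lay near Rpap3, ranks 138 and 1885 near Hey2, a Notch target gene, and ranks 231 and 2607 near Pdcd6ip, a gene of membrane scission. The −log10 p values were 273 and 176 in the first pair, 236 and 61.7 in the second, and 206 and 45.8 in the last. These pairs were taken for their strongest peak, so a weaker partner follows from the choice. Other pairs were even, with 63.2 and 63.3 near Tnfrsf11a and 56.1 and 56.1 near Tyrp1.

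By nearest TSS the 542 peaks were assigned to 465 genes, of which 401 were nearest to 1 peak only. Basp1, which encodes a neuronal membrane protein, Myom2, a muscle protein gene, Tbx3, a T-box factor gene, and Trib2, a pseudokinase gene, were each nearest to 4, and Cdh2, Efna5, Jmjd1c, Rpap3 and Sall1 each to 3. The gene nearest to 23 of the 542 peaks (4.24%, 2.84 to 6.29) had a combined peak in its own promoter. This compared with 4.49% of gene symbols and with 2.23% of far intergenic sequence, measured by base, that is nearest to such a gene. For intergenic peaks within 50 kb the share was 3.89% (2.50 to 5.99).

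Genes of the ciliary and flagellar list, 77 in number, were nearest to 3 far intergenic peaks (0.554%, 0.188 to 1.61), against 1.02% of nearer intergenic peaks, 0.353% of genes and 0.215% of far intergenic sequence. These were Spag6, a central pair gene, 100853 bp away at rank 1614 with scores of 65.9 in replicate 1 and 7.99 in replicate 2, Ttc8, a BBSome gene, and Spag17, another central pair gene. Of 35 regulators of spermiogenesis and meiosis, Fndc3a, needed for spermatids to adhere to Sertoli cells, was nearest to 2 peaks, with scores of 50.3 and 29.9 at rank 1301 and 60.3 and 10.3 at rank 1616, and the others to none. This list took up 0.160% of genes and 0.0601% of far intergenic sequence. Genes of the RFX family were nearest to none (0 of 542, Wilson interval 0 to 0.704%), and 0.0332% of far intergenic sequence is nearest to them.

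Other lists followed the gene content of far intergenic sequence to a varying degree. Families of developmental transcription factors (231 genes) were nearest to 24 peaks (4.43%, 2.99 to 6.50), against 2.78% of far intergenic sequence. Examples were Klf12 at rank 285 with scores of 168 and 52.0, Klf7 at rank 440 with 130 and 52.3, and Tbx20 at rank 684 with 95.5 and 34.3. Cadherins and protocadherins were nearest to 11 peaks (2.03%, 1.14 to 3.6) against 3.71% of the sequence, genes of axon and synapse adhesion to 10 (1.85%, 1.01 to 3.36) against 3.94%, and olfactory and vomeronasal receptors to 0 against 0.704%. The lists are descriptions of where the peaks lie, and no test of enrichment was made.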

How the data were processed

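RFX2 ChIP-seq peak lists of 2 wild type testis samples were analysed. Per the labels and the study's methods, reads were processed with CASAVA 1.8.2, mapped to GRCm38 with Bowtie 0.12.7, discarding reads with several locations, and peaks were called against input with MACS2 2.0.10.20130520. Binding in sequence with identical copies is therefore under-represented. In the deposited replicate lists each peak has a −log10 value, and whether it is a p-value or a q-value is not given in the sources used here. The deposited combined list gives a score, the fold enrichment as a ratio, −log10 p, −log10 q and the summit. It is attached to replicate 2 in the archive, but its peak names begin with "all", and it was taken to rest on the pooled reads. Depth is unknown, and no depth-based limits are given.

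Peaks were placed with GENCODE mouse release M21 (Ensembl 96) on GRCm38 patch 6, using protein-coding transcripts of 21853 genes and their 5′-most TSS. Sequence was read from the RefSeq copy of that build. The scan was tested on simulated windows, with 200 of 200 planted palindromes recovered. X-boxes were allowed 3 mismatches in 200 bp around the summit (the centre in replicate lists). Peaks were called met at an overlap of 1 bp. Differences between shares were called where the 95% Newcombe interval excluded 0. Python 3.11.15, numpy 2.4.6, pandas 2.3.3 and scipy 1.17.1 were used. Alternatives covered the distance limit, the gene models, the motif, the windows, the ranking and each replicate list alone.

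The peaks and gene lists were chosen with earlier results of these data known. Analyses of palindromes in the genome, of shared sequence and of spaced pairs, and the examples of each, were added after the data were seen. Otherwise peaks were named by rule: the 12 strongest, the 5 most remote, those next to the distance limit, the exact palindromes of highest rank, peaks at listed genes and at non-coding starts, and the densest groups. All such groups were pairs, and those with the strongest peaks were named. Sequence from some loci is not reported here.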

Additional observations from a re-analysis of the deposited data

How the results depend on the processing

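Of 89 alternative settings over 16 results, 71 kept the direction and the side of the threshold or stayed close to the value. Ranking by fold enrichment reversed the difference in far intergenic share between the first and the last quartile of rank, to 15.1 points, while either replicate's list alone gave −11.7 to −11.1. With the whole list of 1 replicate in place of the combined list, the difference in X-box share was −8.30 to −4.95 points against promoter peaks and −7.60 to −6.49 against intergenic peaks within 50 kb, both reversed, and 18.1 to 19.9 points against the flanking window. The replicate lists hold many weaker peaks without an X-box, and the part of these in the reversal was not tested. With at most 2 mismatches far intergenic peaks exceeded the nearer intergenic peaks by 9.21 points. The difference in masked summits from intronic peaks no longer excluded 0 at a limit of 100000 bp (4.4 points), in the top 50% of peaks (1.88) and without the first group of shared sequence (1.49), and the replicate lists gave 1.83 to 1.92. The cause was not tested. The differences in peaks met by the other replicate were −1.87 and 0 points in the top 10% of the lists, where nearly all peaks were met. The median position of far intergenic peaks among all peaks, as a percentile from the strongest, was 59.3 by −log10 p, 42.9 by fold enrichment and 55.8 to 64.3 by replicate scores. Peaks with another within 10000 bp and 100000 bp made up 1.85% and 14%. Exact palindromes lay under a peak in 89.2 to 100% in the replicate lists and, outside masked sequence, in 50% in the combined list. Limits of 25000 and 100000 bp gave 705 and 344 far intergenic peaks, every transcript start gave 529 and gene bodies from all transcripts 531. No paired analysis was possible because the 2 inputs were not analysed here and all results come from peak lists of 1 group.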
